A study of Caenorhabditis elegans with 2 samples.

Results

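The potassium channel genes of Caenorhabditis elegans were examined for binding sites of the libraries labelled eGFP-ces-1, in which chromatin of mixed-stage embryos was immunoprecipitated and sequenced (ChIP-seq). Members were taken by name from the WBcel235 annotation: all protein-coding genes named twk, kvs, kqt or irk, together with shk-1, shl-1, slo-1, slo-2, egl-2, egl-36, unc-103, exp-2, unc-58 and sup-9. The rule gave 65 of 19973 protein-coding nuclear genes, of which 46 belong to the two-pore class, 14 to the voltage-gated class, 2 to the calcium-activated class and 3 to the inward rectifiers. The rule uses gene names and no measured value, but it was written with earlier results of these data known.

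Both libraries came from strain OP174, which carries the unc-119 allele ed3 and the insertion wgIs174, a ces-1 transgene with TY1, EGFP and FLAG tags and an unc-119 marker. The animals were whole embryos of mixed stage and pooled sex, so binding in a single cell type cannot be told apart from binding in many. The data comprised 2 biological replicates of this one group, and no control list was analysed here. CES-1 is a zinc finger factor of the Snail family, known for its part in the fate and division of cells in the lineage that gives the NSM neurons of the pharynx.

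Potassium channels let potassium leave the cell, which holds the resting potential down and ends the action potential in neurons and muscle. Two-pore subunits carry the background leak and form an unusually large family in this worm. Voltage-gated channels open as the membrane depolarises, SLO channels respond to calcium or other ions inside the cell as well as to voltage, and inward rectifiers pass current more easily into the cell than out of it.

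A gene was counted as occupied when the summit of a peak in the pooled list thresholded by the irreproducible discovery rate (IDR) lay in the gene body or from 1000 bp upstream to 200 bp downstream of one of its annotated 5′ ends, the promoter window. The signal of a peak is the value the authors' peak caller gave it; its scale is not stated, and the lists give no read counts, so the depth behind each value is unknown. In the nuclear genome the list held 6273 peaks, with signals from 58.7 to 3177.

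The sequences around the strongest summits are shown first, because they are the sites on which the results below turn. Each line gives 101 bases centred on the strongest summit of the 6 members with the highest signals, and of slo-1, which was added to set both calcium-activated genes side by side. They are from the RefSeq sequence of WBcel235 and are written on the strand of the gene. Capitals were reserved for the E-box CANNTG, the general form of the site bound by Snail-type factors, and none of these windows held one.

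irk-3, chrX:14356985-14357085, minus strand: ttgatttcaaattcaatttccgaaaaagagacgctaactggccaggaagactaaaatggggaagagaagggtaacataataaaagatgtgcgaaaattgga
unc-103, chrIII:4132295-4132395, plus strand: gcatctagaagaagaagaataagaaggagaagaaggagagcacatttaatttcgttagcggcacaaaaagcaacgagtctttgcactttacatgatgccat
twk-49, chrII:6493294-6493394, minus strand: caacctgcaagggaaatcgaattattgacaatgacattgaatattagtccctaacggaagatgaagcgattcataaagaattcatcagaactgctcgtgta
slo-2, chrX:11406024-11406124, minus strand: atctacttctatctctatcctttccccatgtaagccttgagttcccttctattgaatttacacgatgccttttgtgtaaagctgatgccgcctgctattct
twk-13, chrV:12329159-12329259, minus strand: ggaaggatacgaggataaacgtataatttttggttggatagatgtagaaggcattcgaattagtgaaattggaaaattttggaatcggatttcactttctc
unc-58, chrX:10110112-10110212, minus strand: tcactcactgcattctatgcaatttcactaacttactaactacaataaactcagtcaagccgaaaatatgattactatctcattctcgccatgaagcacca
slo-1, chrV:18492007-18492107, plus strand: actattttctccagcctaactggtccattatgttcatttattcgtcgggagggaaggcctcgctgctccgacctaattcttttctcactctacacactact

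Over all 36 member summits, the Snail-type E-box CAGGTG, read on both strands, lay within 50 bp of 0, against 113 of 6273, or 1.80%, over the whole list. The broader CANNTG, which includes CAGGTG, was present at 11 of the 36 member summits, or 30.6%, and at 34.9% of all summits. Shifting the window by 500 bp to the left or right of the member summits gave 9 and 11 with CANNTG. Over the whole list the shifted windows held CANNTG at 30.4% and 30.5%, and CAGGTG at 2.41% and 2.52%. CAGGTG was thus no more frequent at the summits of the list than beside them. The median GC content of the windows was 39.6% at members and 41.6% over the list. A missing match says only that these letters are not in this window.

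Of the 65 potassium channel genes 21 were occupied, or 32.3%, where 19.4% of all protein-coding genes were. A summit lay in the promoter window of 14 members, or 21.5%, beside a background of 16.2%, and in the body of 15, or 23.1%, beside 7.19%. The promoter count depended on the window and the list: from 2000 bp upstream to 500 bp downstream it was 22 members, or 33.8%, beside 21.2% of all genes. Among the strongest 3000 peaks it was 5, or 7.69%, beside 8.57%. For 7 of the 21 occupied members the summits were in the body alone, and the other 14 had a promoter summit. Over all genes 3229 of the 3879 occupied ones had a promoter summit. At least 2 summits were found at 7 members, or 10.8%, against 3.86% of all genes. No test was run on these shares, because there is no contrast between samples and neighbouring genes can share a peak.

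Gene length has to be read beside these shares. The median member was 6083 bp long and the median protein-coding gene 2027 bp. Among genes of 10 kb or more, 10 of 18 members were occupied, or 55.6%, where 54.1% of all genes of that length were. From 5 to 10 kb the order was the other way, with 3 of 21 members, or 14.3%, against 34.5%. From 2 to 5 kb 8 of 25 members were occupied, or 32.0%, against 19.6%, and the single member under 2 kb, twk-6, was not, where the background was 12.4%. Within the length classes members thus lay above, near and below the background. Members with 1 annotated 5′ end were occupied at 9 of 28, and those with more at 12 of 37. No background over all genes is given for this split, and each further 5′ end adds a promoter window.

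**Figure D1:**
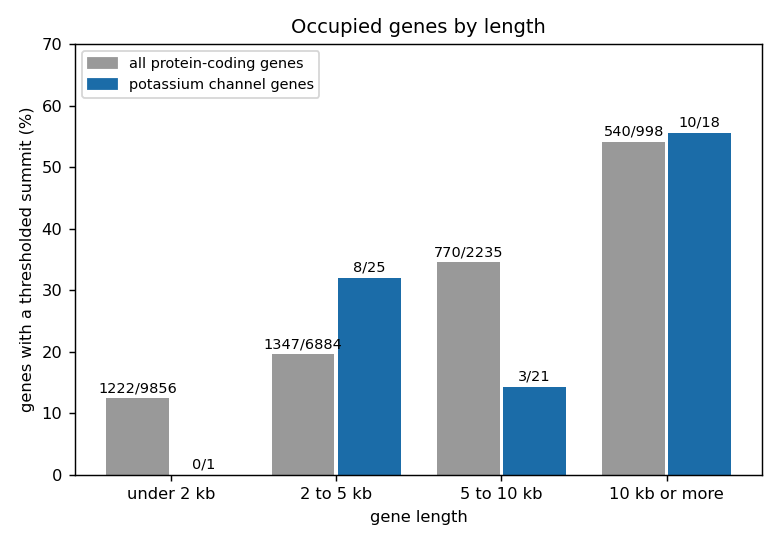
Share of genes with a thresholded summit in the body or promoter window, in percent, by gene length; grey bars are all protein-coding genes, blue bars the 65 potassium channel genes, and the numbers above each bar are occupied genes over genes in the class. Bars carry no error because each share is a full count of the annotated genes; members stood at 55.6% beside 54.1% in the longest class and at 14.3% beside 34.5% from 5 to 10 kb.

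Of the 46 two-pore genes 13 were occupied, or 28.3%, and of the 14 voltage-gated genes 4, or 28.6%. Over all protein-coding genes the share was 19.4%. Both calcium-activated genes and 2 of the 3 inward rectifiers were occupied. Every gene of these small classes was at least 11327 bp long, and 54.1% of all genes of 10 kb or more were occupied. The classes differed in length as well, since the median two-pore gene was 4630 bp and the median voltage-gated gene 10042 bp long. Among genes of 10 kb or more, 3 of 5 two-pore and 3 of 8 voltage-gated genes were occupied. From 5 to 10 kb the counts were 2 of 17 and 1 of 4, beside 34.5% of all genes of that length. From 2 to 5 kb they were 8 of 23 and 0 of 2, beside 19.6%. The order of these classes was thus not the same at each length. A promoter summit was present at 10 of the 13 occupied two-pore genes and at both SLO genes. It was present at 2 of the 4 occupied voltage-gated genes and 0 of the 2 occupied inward rectifiers. Over all protein-coding genes 3229 of the 3879 occupied ones had a promoter summit, so the two-pore count did not exceed that background. These differences between classes were not tested.

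The median signal was 107 over the 36 member summits and 119 over the whole list. The 22 two-pore summits ranged from 64.9 to 317 and the 9 voltage-gated ones from 64.9 to 363, with a median of 109 for the latter. Of the 36, 6 fell among the strongest 20% of the list, or 16.7%, and 8 among the weakest 20%, or 22.2%. Member sites thus spread over the range of the list, with no excess at its strong end.

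**Figure D2:**
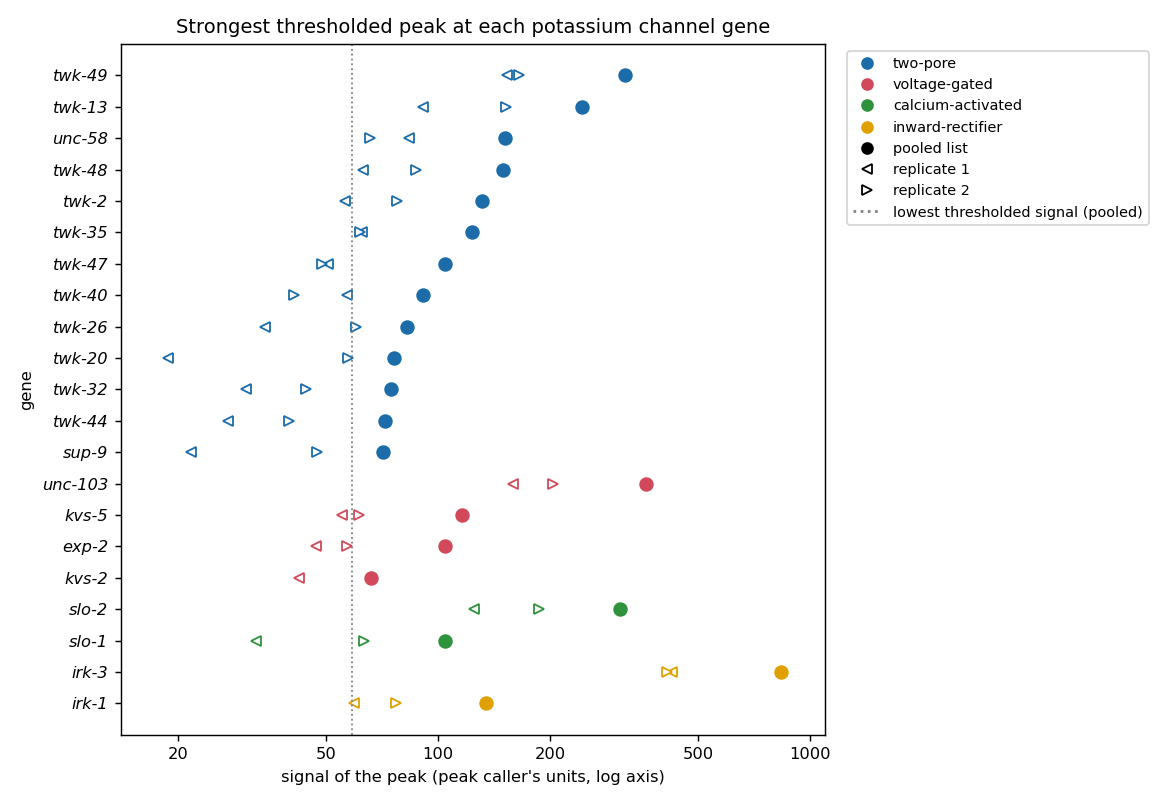
Signal of the strongest thresholded peak at each of the 21 occupied genes, in the peak caller's units on a log axis; filled circles are the pooled list, open triangles the matched peak in each replicate, colours the class, and the dotted line the lowest thresholded signal, 58.7. The irk-3 peak stood highest in all lists, with 833 pooled and 424 and 412 in the replicates, and kvs-2 had no match in replicate 2.

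The strongest site of all lay in the inward rectifier gene irk-3 (X, 14353290 to 14370414, minus strand), with a signal of 833 at rank 54 of the whole list. The peak (14356833 to 14357222, summit 14357035) was in an intron of 1455 bp, 13379 bp into the gene and 1253 bp upstream of an annotated internal 5′ end. The signal was 424 in replicate 1 and 412 in replicate 2, with ranks of 46 and 65, and the summits lay 4 and 8 bp from the pooled one. It exceeded the next strongest site, at unc-103, by a log2 difference of 1.20 in the pooled list, 1.42 in replicate 1 and 1.01 in replicate 2. Over the whole list, the signals of a matched peak in the replicates differed with an SD of 0.57 on the log2 scale. That SD does not measure the spread of a difference between separate sites, and irk-3 was picked as the strongest.

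The second inward rectifier, irk-1, is known to quiet the HSN neurons that drive egg laying. Its single site (X, 6775795 to 6776184, signal 134) lay in an intron of 4991 bp, 2124 bp downstream of the 5′ end, with signals of 59.2 and 77.1 in replicates 1 and 2. The third, irk-2, had no thresholded summit. Its strongest entry in the relaxed pooled list, which holds 30000 entries of peaks and background, had a signal of 38.7. All 3 genes are on X and at least 11528 bp long.

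Among the voltage-gated genes unc-103 carried most of the sites. It encodes an ERG-type channel that restrains excitability in muscles and neurons of egg laying and mating. The gene (III, 4115385 to 4147278, plus strand) is 31894 bp long, the longest of the 65, with 10 annotated 5′ ends, and held 6 summits, all intronic. The strongest (4132223 to 4132458, summit 4132345) had a signal of 363 at rank 461, with 159 in replicate 1 and 204 in replicate 2, and lay 1068 bp downstream of an internal 5′ end. The next had pooled signals of 239 and 199, at 4119957 and 4123486, and lay 1507 and 1215 bp upstream of internal 5′ ends. Their signals were 108 and 126 in the replicates for the first and 91.2 and 108 for the second. The weaker ones had 109, 67.4 and 64.9, and the last, at 4126406, had no match in replicate 1. All 6 therefore lay in the part of the gene where its 5′ ends are spread, from 2124 to 16960 bp past the outermost one. The density in the body was 1.88 per 10 kb, against 1.21 over the 21 occupied members. Over all protein-coding genes, occupied or not, it was 0.371. The gene unc-103 was not the densest member, since twk-49 had 4.70 per 10 kb.

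The other occupied voltage-gated genes had 1 site each. At kvs-5 (IV, 740712 to 741101, signal 116) it lay in an intron of 4186 bp, 1403 bp upstream of an internal 5′ end, with 55.0 and 61.1 in the replicates. At exp-2, which encodes the channel that repolarises pharyngeal muscle, the site (V, 6136222 to 6136611, signal 104) was intronic, with 47.0 and 56.9 in the replicates. Its summit also lay in the body of ttn-1, a gene for a giant muscle protein that overlaps exp-2, so the site belongs to both. At kvs-2 the site (V, 10641102 to 10641491, signal 65.8) was 3 bp upstream of an internal 5′ end. It had a signal of 42.3 in replicate 1 and no match in replicate 2.

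The other 10 voltage-gated genes had no thresholded summit. The Shaker-type gene shk-1 had 5 relaxed entries, the strongest with a signal of 38.1, and the Shaw-type gene egl-36 had 8, up to 43.6. The KCNQ-type genes kqt-1 and kqt-3 reached 42.8 and 51.6, and kvs-1 reached 52.7 among 11 entries. The values were 20.6 at kvs-4 and 16.2 at the EAG-type gene egl-2, and the strongest entry of the Shal-type gene shl-1 ranked 14503 of 30000, while kqt-2 and kvs-3 had no entry in that list. The median of the relaxed pooled list was 24.3, so kvs-4 and egl-2 lay below its middle and the other 6 above it.

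The 2 SLO genes both had a site just upstream of their outermost 5′ end. At slo-2, named for its SLO2-type channel, the peak (X, 11405980 to 11406190, summit 11406074) lay 143 bp upstream. Its signal was 308 at rank 674, with 125 in replicate 1 and 187 in replicate 2. A second, intronic site of slo-2 (signal 76.8) lay 104 bp upstream of an internal 5′ end, with signals of 53.2 and 40.6. At slo-1, the BK-type channel that limits transmitter release, the peak (V, 18491862 to 18492251, summit 18492057) lay 204 bp upstream with a signal of 104. Replicate 1 gave 32.4 and replicate 2 gave 63.3 for it. The slo-2 site was the stronger in each list, by a log2 ratio of 1.57 in the pooled one, 1.95 in replicate 1 and 1.56 in replicate 2.

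**Figure D3:**
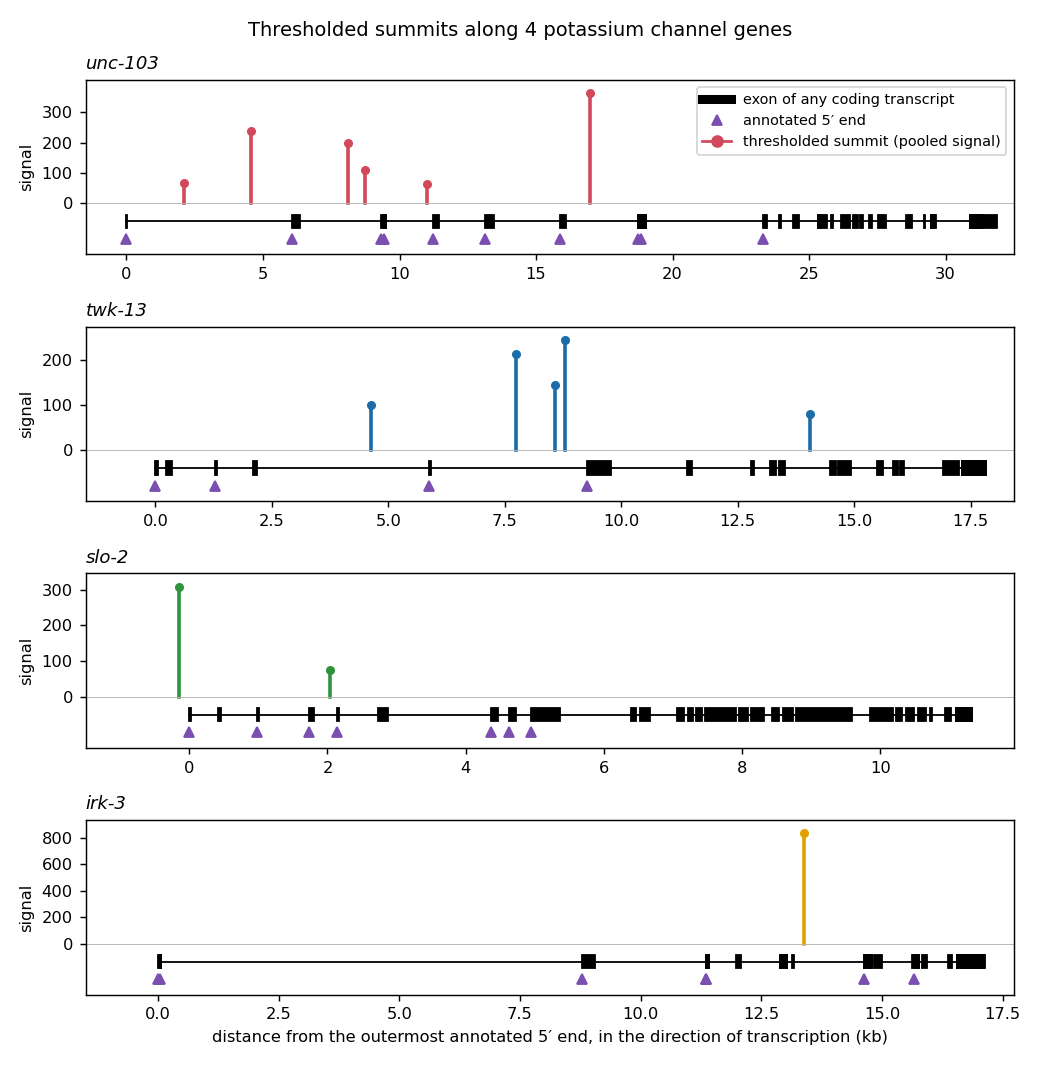
Thresholded summits along unc-103, twk-13, slo-2 and irk-3; the horizontal axis is the distance in kb from the outermost annotated 5′ end in the direction of transcription, the stems give the pooled signal in the peak caller's units, black boxes are exons of any coding transcript and triangles annotated 5′ ends. Vertical scales differ between panels; the 6 summits of unc-103 and the 5 of twk-13 lie in introns, and the strongest of slo-2 lies 143 bp upstream of the gene.

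Among the two-pore genes twk-13 had the most summits. The gene (V, 12320170 to 12337994, minus strand, 17825 bp) has 4 annotated 5′ ends, and its 5 summits were intronic with pooled signals of 244, 212, 144, 101 and 80.5. The strongest (12329057 to 12329269, summit 12329209) lay 482 bp upstream of the innermost 5′ end, with 91.0 in replicate 1 and 152 in replicate 2. It overlapped the peak with a signal of 144, and these with the second strongest shared a single intron of 3349 bp. A non-coding RNA gene, R04F11.25, is annotated across the strongest summit. The weakest of the 5 was the least even of the 34 member sites matched in both replicates, with 17.1 in replicate 1 at rank 12295 and 63.0 in replicate 2 at rank 3322.

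The highest two-pore signal was at twk-49 (II, 6492785 to 6499167), but its summit (peak 6493191 to 6493480, summit 6493344, signal 317 at rank 641, with 153 and 165 in the replicates) lay in an untranslated exon that overlaps the body of T28D9.1. The nearest 5′ end there was that of T28D9.1, so the site cannot be given to twk-49 alone. The other sites of twk-49, with signals of 123 and 92.4, were intronic and nearest to its own 5′ ends.

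The gene unc-58 is a two-pore gene known for gain-of-function mutants that cannot move. It is 28573 bp long and had an intronic site 364 bp upstream of an internal 5′ end (X, 10109967 to 10110356, signal 151, 83.2 and 65.6 in the replicates). A weaker one (signal 79.2, 45.4 and 36.1) had its summit within a tRNA gene in an intron. The small gene twk-48 (III, 9860730 to 9863328, 2599 bp) also had a tRNA gene at one of its sites. Its promoter site (9860236 to 9860625) lay 299 bp upstream (signal 149, 62.9 and 87.2 in the replicates), and its intronic site (signal 110, 56.9 and 54.0) had its summit within a tRNA gene. A tRNA gene lay within 200 bp of these 2 of 36 member summits, or 5.56%, and of 93 of 6273 summits over the list, or 1.48%.

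Most of the remaining two-pore sites were single and weak. At twk-2 the site (II, 4453504 to 4453893) was 548 bp upstream, with a signal of 131 and with 56.1 and 77.4 in the replicates. At twk-35 it (V, 20863406 to 20863795) was intronic, with a signal of 123 and with 62.2 and 61.5 in the replicates. The twk-47 site (104, with 50.6 and 48.7) lay in a coding exon, and the nearest 5′ end there belonged to the neighbouring gene obr-4. The twk-26 site (82.2, with 34.2 and 60.1) was also in a coding exon. For twk-40, a leak channel of the motor circuit, a site 746 bp upstream had 90.9, with 56.8 and 40.9, and an intronic one had 64.9.

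The sites of twk-20, twk-32, twk-44 and sup-9 lay from 109 to 377 bp upstream of the gene, with pooled signals of 75.8, 74.5, 71.9 and 71.2. In replicate 1 they had 18.8, 30.4, 27.2 and 21.6, and in replicate 2 57.1, 44.1, 39.8 and 47.3, so each was higher in replicate 2. The sup-9 summit, 109 bp upstream, also lay in the promoter window of nspf-1, and the twk-44 summit in the body of spp-30. sup-9 encodes a two-pore channel of muscle that works with the proteins of unc-93 and sup-10.

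A further 33 two-pore genes had no thresholded summit, and 20 of these had no entry in the relaxed pooled list either. The relaxed signal was 54.5 at twk-17, 42.8 at twk-23, 34.5 at twk-14 and 30.7 at twk-18, whose channel acts in body wall muscle. It was 27.9 at twk-39, 25.6 at twk-7, 24.9 at twk-16 and 22.5 at twk-30. The strongest entry of twk-28 ranked 12643 of 30000. At twk-46, twk-25, twk-31 and twk-4 it was between 13.5 and 19.9. The genes without an entry were twk-1, twk-3, twk-5, twk-6, twk-8, twk-9, twk-10, twk-11, twk-12, twk-21, twk-22, twk-24, twk-29, twk-33, twk-34, twk-36, twk-37, twk-42, twk-43 and twk-45. Of these, twk-3, twk-12, twk-21, twk-29, twk-33, twk-34, twk-36, twk-43 and twk-45 did have an entry in the relaxed list of at least 1 replicate. Over all classes 43 of 65 members had an entry in the relaxed pooled list, or 66.2%, where 41.1% of all genes did.

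Chromosome V held 14 of the two-pore genes. Of these, 3 were occupied, twk-13, twk-32 and twk-35, and 9 had no entry in the relaxed pooled list. Among these, twk-33, twk-42 and twk-36 lie near each other between 17710042 and 17747059, and twk-10 was 80736 bp from the nearest thresholded summit. Of all protein-coding genes on chromosome V 11.3% were occupied, and its 19 members of all classes stood at 6 occupied, or 31.6%. On X 7 of 19 members were occupied, or 36.8%, beside 22.5% of all genes there, and on the autosomes 14 of 46, or 30.4%, beside 18.9%. The median member was 6862 bp long on V and 8277 bp on X, against 2027 bp over all protein-coding genes. No background by gene length is given for single chromosomes, so these shares also carry the difference in length.

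Introns were the most frequent place of the member sites. Relative to the member gene, 24 of the 36 summits were intronic, 9 lay upstream of the body, 2 were in coding exons and 1 in an untranslated exon. Over all summits in a gene body or promoter window, 42.4% were intronic. Of the 24, 18 were in the first intron of at least 1 annotated transcript and 15 lay upstream of the nearest 5′ end of the same gene, that is, before an internal start. No background over all intronic summits is given for these counts. Occupied members had a median of 3 annotated 5′ ends, against 2 in members without a summit and 1 over all protein-coding genes. Members with 1 end and with more were occupied at much the same share, 9 of 28 and 12 of 37. The gene unc-103, with 10 such ends, supplied 6 of the 24 summits. Of these 24 summits 8 were inside a promoter window. The introns that held a summit had a median of 2501 bp, from 321 to 6070, against 137 bp for the 769 introns of the members.

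Since long introns offer more sequence, the density was compared too. Introns over 1 kb held 17 summits in 215 kb, or 0.789 per 10 kb, and shorter ones 7 in 162 kb, or 0.433. Over all protein-coding genes these values were 0.859 and 0.260. In both sets the long introns were denser in sites than the short ones. Among members this rests on few genes, since the 17 include all 6 summits of unc-103 and most of the 5 of twk-13.

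The replicates placed nearly all of these sites at the same positions. Of the 36 summits 34, or 94.4%, had a summit within 100 bp in both relaxed replicate lists, the same share as the 94.5% over the list, which was itself made by comparing the replicates. At the 34, replicate 2 over replicate 1 on the log2 scale had a median of 0.26 and an SD of 0.53, against 0.15 and 0.57 over all matched peaks, and 32 lay within 2-fold of the median ratio of the whole list. The signal was higher in replicate 2 at 24 of the 34, or 70.6%, and at 62.8% of all matched peaks. In replicate 1, 7 of the 36 ranked below 6290 or had no match, or 19.4%, against 13.8% of all summits. In replicate 2 it was 1, or 2.78%, against 11.8%.

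**Figure D4:**
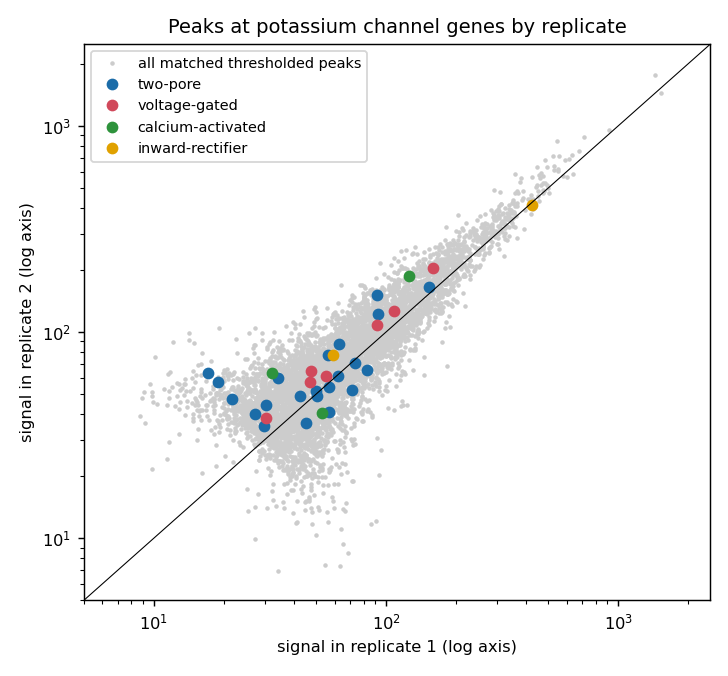
Signal of thresholded peaks in replicate 1 against replicate 2, both on log axes in the peak caller's units; grey points are all 5928 peaks matched in both, coloured points the 34 matched summits at potassium channel genes by class, and the line marks equal signal. Of the coloured points 24 lie on the side of replicate 2, and irk-3 is the point at the upper right.

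Sites farther upstream were listed for completeness, as the nearest 5′ end does not show which gene a site acts on. A further 11 thresholded summits lay outside every window and body of the members but had a member's 5′ end as the nearest, from 1139 to 8245 bp upstream. For 4 members without a summit these were the nearest sites. At shl-1 a summit lay 1139 bp upstream with a signal of 152 (47.9 and 104 in the replicates). At kvs-3 there were 3, at 1204, 2646 and 5762 bp, with 97.9, 140 and 60.7. At twk-17 a summit lay 8245 bp upstream with a signal of 210 (83.3 and 132), and at twk-46 one lay 2036 bp upstream with 101. The other 5 genes were unc-103 (184, 7980 bp), unc-58 (121, 2678 bp), twk-2 (110, 3178 bp), slo-1 (109, 1736 bp) and irk-3 (72.0, 2461 bp).

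Related genes were counted in the same way. Of 5 potassium channel genes that the name rule leaves out, 3 were occupied: kcnl-2 and kcnl-1, of the small-conductance calcium-activated type, with strongest signals of 174 and 102, and the two-pore gene egl-23 with 70.8. The genes kcnl-3 and kcnl-4 were not. Of all protein-coding genes 19.4% were occupied. The 5 genes were long, with a median of 22994 bp. Of the 4 of at least 10 kb 3 were occupied, where 54.1% of all genes of that length were. Of 14 genes for subunits and partners of potassium channels 5 were occupied, or 35.7%, beside the same 19.4% of all genes. They were stn-1, dyb-1 and dys-1 of the dystrophin complex with strongest signals of 334, 83.4 and 82.6, and bkip-1 and islo-1, partners of SLO-1, with 69.7 and 67.7. The genes ctn-1 and erg-28 were not occupied. The partners of sup-9, unc-93, sup-10 and sup-18, and the KCNE-type genes mps-1 to mps-4 had no summit.

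The list of calcium and sodium leak channel genes also held genes that do not encode a channel for inward current, such as those of channel partners. Of the 11 genes in this list 10 were occupied, where 19.4% of all genes were, and 20 summits had a median signal of 134. They were long, with a median of 14168 bp, and 7 of the 7 of at least 10 kb were occupied, where 54.1% of all genes of that length were. The strongest were at unc-79 (476) and nca-2 (416) of the sodium leak complex and at the presynaptic calcium channel gene unc-2 (354), and ccb-1 was the one without a summit. Innexin genes, which encode gap junction subunits, were occupied at 5 of 24, or 20.8%, with a median length of 3206 bp, and unc-7 alone held 11 of their 20 summits. Over all lengths the share of occupied potassium channel genes lay between these lists, as did their median length. Among genes of 10 kb or more it lay below both, at 10 of 18. The leak channel list stood at 7 of 7 and the innexin genes at 4 of 4. From 2 to 5 kb 1 of 12 innexin genes was occupied. No difference between the lists was tested.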

How the data were processed

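The peak lists on ce11 coordinates were used as the authors deposited them: a relaxed list of 30000 entries for each of 2 replicates, one for the pooled replicates, and the 6290 pooled peaks kept by IDR, of which 17 mitochondrial peaks were left out. The signal of each peak is the value in the deposited lists, and its scale is not given in the sources used here; nor are the tools that aligned reads and called peaks. The ce10 lists were not used. Genes came from Ensembl release 115 (WBcel235), the build of ce11, and sequence from RefSeq. Summits were placed with Python 3.11.15, and the placing and matching of summits were checked on simulated data. Positions count from 1. Replicate summits were matched within 100 bp. Shares stand beside those of all protein-coding genes or summits, with no test. One entry of the calcium and sodium leak list, nca-1, had no match.

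Named were the members with the 10 strongest summits with full values, every other occupied member, all non-two-pore members, sup-9, unc-58 and twk-18, and unoccupied members by name. Members and lists were chosen with earlier results of these data known.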

Additional observations from a re-analysis of the deposited data

How the results depend on the processing

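No paired analysis was possible because both replicates form a single group. The 21 occupied members became 20 with a promoter window of 500 bp upstream to 100 bp downstream, 25 with one of 2000 bp to 500 bp, 20 with peaks matched in both replicates, 20 with each summit given to the nearest 5′ end, 22 with any overlap of the peak, and 18 without summits shared with another gene, an alternative chosen after seeing the data. The wider window gave 7 voltage-gated genes in place of 4 and 22 members with a promoter summit in place of 14, while the share of all genes with a summit in body or window went from 19.4% to 23.4% and of those with a promoter summit from 16.2% to 21.2%. With the strongest 3000 peaks, 9 members were occupied, 5 of them two-pore, 1 voltage-gated and 1 calcium-activated, with 13 summits in all and 5 members with a promoter summit. This list holds fewer peaks by construction, and 10.7% of all genes were occupied in it, beside 13.8% of members.

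With the strongest 6290 peaks of each replicate alone, occupied members numbered 18 and 22, two-pore genes 10 and 15, voltage-gated genes 4 and 3, calcium-activated genes 2 and 2, inward rectifiers 2 and 2, members with a promoter summit 12 and 15, and summits 30 and 41, for replicates 1 and 2. In the same order 27.7% and 33.8% of members were occupied, beside 19.6% and 19.7% of all genes. A promoter summit was present at 18.5% and 23.1% of members, beside 16.3% and 16.3% of all genes. Without replicate 2 sup-9, twk-44 and twk-20 were lost, and without replicate 1 kvs-2 was lost while twk-43 and twk-17 were gained. The median signal, 107 when pooled, was 55.0 in replicate 1 and 61.1 in replicate 2, which are on the scale of single libraries. Within 50 bp 29 summits and within 200 bp 35 were found in both replicates. CAGGTG lay within 100 bp of 2 member summits in place of 0 within 50 bp, and any CANNTG within 50 bp of 11. Depth is unknown, and sites near the lowest signals are the least certain.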
